A study of Mus musculus with 4 samples.

Results

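The genes described here are those of cholesterol and fatty acid synthesis, together with the proteins that switch them on, in gamma delta intraepithelial lymphocytes of the mouse colon. These lymphocytes are T cells that reside between the epithelial cells of the gut. The list holds 34 genes: enzymes of the sterol pathway, regulators of the SREBP transcription factors and enzymes that make fatty acids. A gene was read where the array's annotation gave a probe set that gene's symbol alone. By this rule 33 of the 34 genes were read, on 78 of 45101 probe sets, and Acat2 had no probe set of its own and is not described further. The array held 18194 genes with such a probe set. All cells were sorted from conventionally raised C57b/6 mice. The untreated group had no treatment, and the DSS group came from mice given 2% dextran sulfate sodium (DSS) in the water for 5 days and then plain water for 3 days. DSS is a polymer that injures the colonic epithelium. Each group had 2 arrays, and the labels do not say whether these were separate mice, pools or sorts, nor give the animals' age. P-values therefore measure the spread between these samples alone, and that spread may be technical.

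Cholesterol is built from acetyl-CoA. Acetyl-CoA is joined and reduced to mevalonate, mevalonate is turned into isoprenoid units, and these are condensed to squalene, which is closed into a ring and trimmed to cholesterol. The transcription factors SREBP-1 and SREBP-2, encoded by Srebf1 and Srebf2, control this pathway and fatty acid synthesis. When membranes hold enough sterol, SCAP and the Insig proteins keep the SREBP precursors in the endoplasmic reticulum. When sterol runs low, SCAP carries the precursors to the Golgi, where the proteases encoded by Mbtps1 and Mbtps2 release the active factor. T cells raise both syntheses when they divide, since new membrane is needed, and the SREBPs are regulated largely by this processing and not only by transcript level.

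Signals are the authors' linear array intensities. They were compared as log2(signal + 32), and a log2 difference is DSS minus untreated, with its standard error (SE) from limma over 2 arrays per group. A fold on this scale understates the change of dim genes. All 33 genes passed the filter on low values, which asks that a probe set exceed the array median on 2 or more of the 4 arrays (6.05% of the genes tested, and 0 of the 33, did so in 1 group only), and each gene is given by its brightest kept probe set unless another is named. Of the 33 genes, 30 lay above the array median on all 4 arrays, and Msmo1, Insig2 and Mvk did so on 3.

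The signals carried limits that touch every value below. The untreated arrays correlated at r = 0.794 with each other across genes and the DSS arrays at r = 0.92. Between the groups r ran from 0.817 to 0.854. Each untreated array thus correlated more with both DSS arrays than with the other untreated array. The bacterial and phage transcripts added as hybridisation controls had mean signals of 82269 and 59067 on the untreated and 14372 and 15271 on the DSS arrays, so treatment and array processing cannot be told apart. Of 13 macrophage markers, 12 were higher on both DSS arrays, and their summed signal was 10162 and 3663 in untreated cells against 64611 and 90729 after DSS, with Cd163 below the array median on all 4. Their part in the differences below was not tested. The T cell and intraepithelial lymphocyte markers, 12 of 15 read, were all above the array median on all 4 arrays, among them Cd3e, Cd3g, Itgae and Trgv4, a gamma delta receptor segment. Their summed signal was 720771 and 548600 in untreated cells against 342970 and 354947 after DSS, with 2 higher and 6 lower on both DSS arrays. Of all genes tested 17.2% were higher and 23.8% lower. The 2 higher were the CD3 chains Cd3d and Cd3g, opposite to the sum. The 6 lower were Ccl5, Cd8a, Gzmb, Itgae, Trgv4 and Zap70. Itgae had 101512 and 98460 in untreated cells against 43558 and 43518 after DSS. Ccl5 had 166892 and 171899 against 55885 and 65842. The sum rests most on the brightest genes. One of these, Gzma, overlapped between groups, at 187735 and 53264 in untreated cells against 71928 and 75419 after DSS. In such bulk samples, fewer cells of a type and less RNA per cell cannot be told apart.

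Across the 33 genes, several steps of sterol synthesis and several SREBP regulators had higher signals in DSS samples, and the largest single difference was a lower signal of Acss2, which makes acetyl-CoA from acetate. No gene passed. Limma with Benjamini-Hochberg adjustment called 0 of the 33 and 0 of 12425 genes tested (0.0%), with a smallest adjusted p among the 33 of 0.648. At an unadjusted p under 0.05, limma gave 4 of the 33 higher and 1 lower, against 3.71% and 3.81% of all genes. Both DSS arrays lay above both untreated arrays for 12 of the 33 genes, or 36.4%, against 17.2% of all genes tested. Both DSS arrays lay below for 5, or 15.2%, against 23.8% of all genes. The groups were apart in either direction for 17, or 51.5%, against 41.0% of all genes. Among those apart, the means differed 2-fold or more upward for 4 of the 33 (Msmo1, Scap, Insig2 and Idi1) and downward for 1 (Acss2), against 6.12% and 8.02% of all genes.

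The estimates leaned upward. Of the 33 log2 differences 22 were above 0 and 11 below, where 46.1% of all genes tested were above and 53.9% below. The median log2 difference was 0.28 for the 33 genes and -0.07 for all genes, a gap of 0.35. Other scalings of the arrays move all genes together. With quantile-normalized arrays the medians were 0.19 and 0.013, a gap of 0.17. With every array set to a common median they were 0.61 and 0.25, a gap of 0.36. Of the genes whose groups were apart, those higher made up 70.6% on the deposited scale, 70.6% with quantiles equalised and 84.2% with a common median. Over all genes tested the same shares were 42.0%, 49.6% and 71.2%. The difference between group means was larger than the gap between replicates in both groups for 14 of the 33 genes, or 42.4%, against 27.8% of all genes. Replicates of these genes differed by a median of 0.60 log2 in untreated and 0.29 in DSS samples, against 0.68 and 0.36 over all genes.

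**Figure D1:**
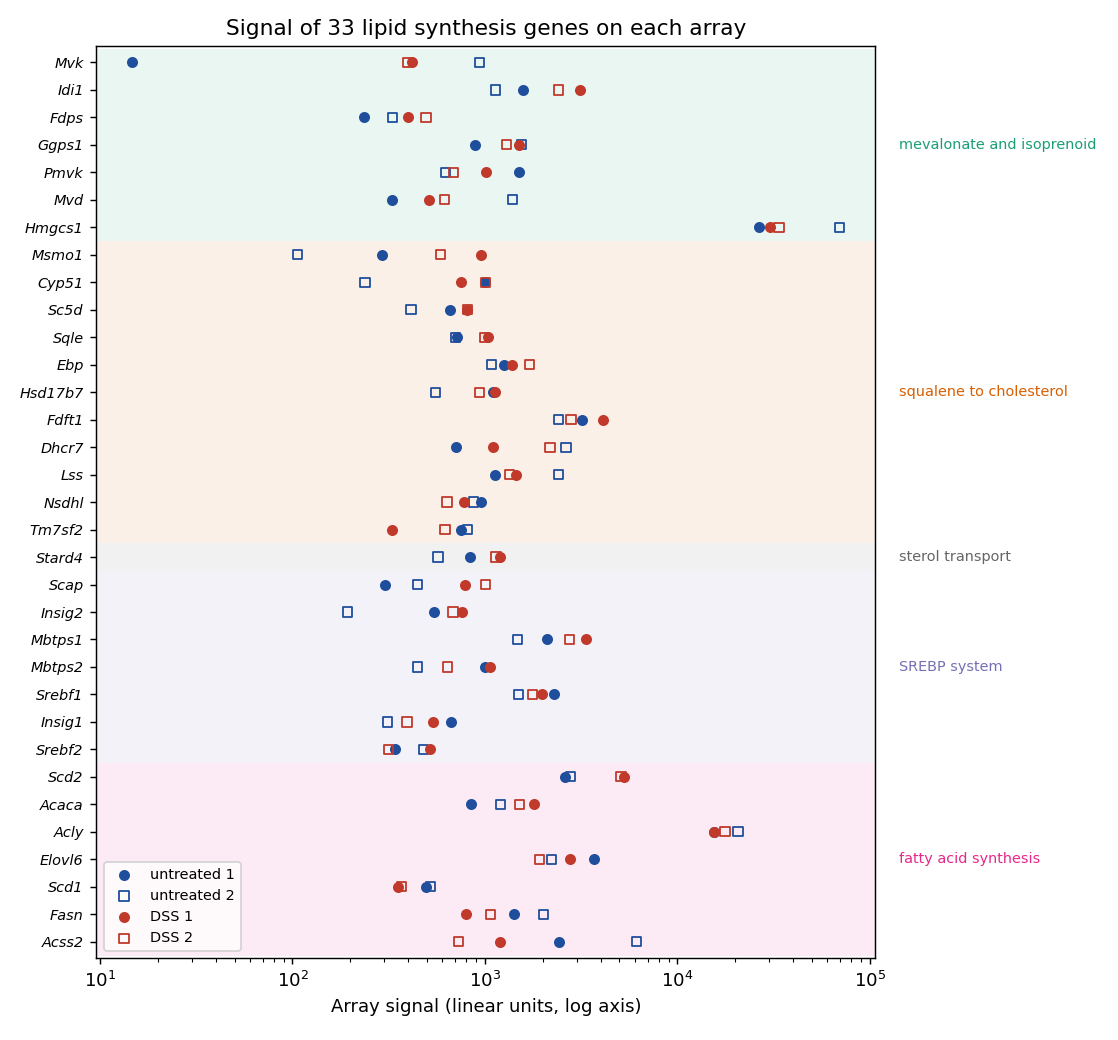
Array signal, in linear units on a log axis, of the 33 genes on the 2 untreated (blue) and 2 DSS (red) arrays, with replicate 1 filled and replicate 2 open, ordered by role. Scd2, Scap and Idi1 show red points to the right of blue ones, Acss2 and Fasn show the opposite order, and the untreated points of Mvk lie at 14.6 and 933.

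Promoters are printed for the genes with a listed promoter that had the smallest limma p in each direction, Msmo1 and Scap (higher) and Acss2 and Fasn (lower), and for Hmgcs1, whose promoter held the only match to a sterol regulatory element core. Each is the 250 bases before the transcription start in RefSeq's GRCm38.p6 annotation, on the strand of the gene, in lower case. Capitals mark CCAAT, the box bound by NF-Y, which acts with SREBPs; the sterol regulatory element core TCACNCCAC; and the E-box CACGTG, which SREBP-1 can also bind, each on either strand. Scap has 2 listed starts, and the stretch shown belongs to the one that holds a match.
Msmo1, chr8:64733579-64733828, minus strand: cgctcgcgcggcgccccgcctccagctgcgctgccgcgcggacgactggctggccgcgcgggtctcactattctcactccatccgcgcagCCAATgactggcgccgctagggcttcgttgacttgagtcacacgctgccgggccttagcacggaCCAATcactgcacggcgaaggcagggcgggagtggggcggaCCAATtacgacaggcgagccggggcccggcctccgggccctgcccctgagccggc
Scap, chr9:110333106-110333355, plus strand: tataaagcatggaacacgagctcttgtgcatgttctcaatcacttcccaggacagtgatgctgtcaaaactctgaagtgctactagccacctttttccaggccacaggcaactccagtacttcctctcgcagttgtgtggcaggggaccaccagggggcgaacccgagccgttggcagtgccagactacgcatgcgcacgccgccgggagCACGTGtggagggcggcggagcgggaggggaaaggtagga
Acss2, chr2:155517793-155518042, plus strand: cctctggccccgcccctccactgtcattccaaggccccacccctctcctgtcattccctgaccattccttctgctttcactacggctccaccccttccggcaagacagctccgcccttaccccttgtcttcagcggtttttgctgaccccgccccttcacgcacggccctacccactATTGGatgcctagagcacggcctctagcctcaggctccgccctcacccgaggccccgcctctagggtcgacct
Fasn, chr11:120824548-120824797, minus strand: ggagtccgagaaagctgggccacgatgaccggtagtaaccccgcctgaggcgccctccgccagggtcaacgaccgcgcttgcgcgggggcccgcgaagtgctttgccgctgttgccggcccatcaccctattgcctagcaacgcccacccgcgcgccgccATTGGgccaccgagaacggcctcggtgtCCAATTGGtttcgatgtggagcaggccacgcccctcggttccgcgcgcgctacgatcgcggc
Hmgcs1, chr13:119690101-119690350, plus strand: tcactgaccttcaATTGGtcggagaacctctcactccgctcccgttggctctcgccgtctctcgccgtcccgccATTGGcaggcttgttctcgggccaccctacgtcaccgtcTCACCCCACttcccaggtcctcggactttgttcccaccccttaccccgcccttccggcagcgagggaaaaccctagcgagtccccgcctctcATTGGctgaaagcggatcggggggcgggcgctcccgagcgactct

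The CCAAT box was in the promoters of 21 of the 28 genes of the list that had a promoter entry, and in 33.8% of all 32851 promoters of the same length. Counted per promoter it was in 22 of 36, or 61.1%. The GC box GGGCGG, bound by Sp1, was in 25 of 36 promoters of these genes, or 69.4%, against 32.7% of all. The E-box was in 5 of 36, or 13.9%, against 6.02% of all, in Dhcr7, Hsd17b7, Insig1, Sc5d and Scap. The sterol element core TCACNCCAC occurred in 1 of 36, against 1.05% of all promoters. No match says only that these letters are not in this window. In Hmgcs1 the core read TCACCCCAC, 137 to 129 bases before the start. Genes with higher and with lower signals both held the CCAAT box: Msmo1 held 3, Fasn 3 (of which a pair overlap) and Acss2 1.

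The mevalonate and isoprenoid steps comprised 7 genes read, of which 2 (28.6%) were higher on both DSS arrays and 0 were lower. Of all genes tested 17.2% were higher and 23.8% lower, so 41.0% were apart in either direction, more than in this stretch. Their median log2 difference was 0.25, with 4 estimates above 0 and 3 below, and it was 0.32 above that of all genes as deposited and 0.17 above it after quantile normalization. Idi1, which isomerises the first isoprenoid unit, had signals of 1574 and 1136 in untreated cells against 3110 and 2419 after DSS. Its log2 difference was 1.02 ± 0.40 (SE, n = 2 per group), a 2.03-fold higher level (limma adjusted p = 0.648). Both DSS arrays lay above both untreated arrays, and its second probe set gave the same size, 1.01, with 789 and 569 against 1669 and 1149. Fdps, which joins isoprenoid units into farnesyl diphosphate, had 236 and 332 in untreated cells against 397 and 494 after DSS, a log2 difference of 0.61 ± 0.46 (SE) with groups apart.

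Hmgcs1, which makes HMG-CoA at the entry to the pathway, gave different answers on different probe sets. On its brightest probe set it had 26392 and 69798 in untreated cells against 30291 and 33704 after DSS, and the groups overlapped (log2 difference -0.43 ± 0.51, SE). A second probe set read 538 and 277 in untreated cells against 1861 and 1257 after DSS, a log2 difference of 1.90. A further one read 1185 and 268 against 1893 and 1471, a difference of 1.49. On the remaining 2 kept probe sets both DSS arrays were below both untreated arrays, by -0.37 and -1.02, the latter kept through the untreated arrays only. No direction can be given for this gene from the 5 probe sets. On the probe set chosen once names ending in _x_at, _s_at or _a_at were set aside, the one that read 1.90, the adjusted p was 0.642.

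On their brightest probe sets, the other mevalonate genes did not separate the groups. Mvk, mevalonate kinase, had 14.6 and 933 in untreated cells against 417 and 394 after DSS, so the untreated arrays lay on either side of the DSS arrays. Mvd, which decarboxylates the last mevalonate intermediate, had 329 and 1396 against 512 and 619. On the second kept probe set of Mvd both DSS arrays were below both untreated arrays. It read 252 and 401 against 167 and 210, a log2 difference of -0.68. Pmvk, phosphomevalonate kinase, had 1494 and 623 against 1007 and 684, and Ggps1, which makes geranylgeranyl diphosphate for protein prenylation, had 886 and 1545 against 1509 and 1295. Other kept probe sets of Ggps1 gave -0.41, -0.31 and, on one kept through the DSS arrays only, 1.76. On the brightest probe sets of Mvk, Mvd, Pmvk and Ggps1 the gap between the untreated arrays exceeded the difference between the groups. These gaps were 4.37, 1.99, 1.22 and 0.78 log2.

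From squalene to cholesterol 11 genes were read, of which 4 (36.4%) were higher and 2 (18.2%) lower on both DSS arrays. The shares over all genes tested were 17.2% and 23.8%. The median log2 difference was 0.38, with 8 estimates above 0 and 3 below. Msmo1, which removes methyl groups from the sterol ring, had the largest difference upward: 290 and 106 in untreated cells against 951 and 586 after DSS. The log2 difference was 1.89 ± 0.57 (SE), or 3.70-fold (limma unadjusted p = 0.0128, adjusted p = 0.648). The DSS arrays were both above the untreated arrays, and the second untreated array was below its array median of 214. A dimmer second probe set, not kept by the filter, had 21.2 and 10.5 against 38.5 and 194.

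Sqle, squalene epoxidase, an oxygen-dependent and tightly controlled step, had replicates within 0.025 log2 in untreated and 0.068 in DSS samples. It had 715 and 702 in untreated cells against 1041 and 992 after DSS, a log2 difference of 0.50 ± 0.38 (SE), or 1.42-fold. Its groups were apart by more than the gap within either group, and limma's unadjusted p was 0.229. Sc5d, a sterol desaturase, had 655 and 413 against 809 and 811 (0.61 ± 0.42, SE). Ebp, a sterol isomerase, had 1259 and 1085 against 1374 and 1698 (0.38 ± 0.39, SE). Both DSS arrays were above both untreated arrays for Sc5d and for Ebp.

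Cyp51, which demethylates lanosterol, had 1006 and 238 in untreated cells against 750 and 1009 after DSS on its brightest probe set, and the groups overlapped (0.77 ± 0.66, SE). On its other 2 probe sets they did not. These read 558 and 251 against 813 and 837 (log2 difference 1.07), and 27.9 and 40.7 against 171 and 299 (1.97). The last of these was above the array median on the DSS arrays only and passed the filter through them, so its direction adds nothing. The second untreated array was the lower one on the first 2 probe sets.

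Lower signals were found for a pair of enzymes of the same stretch, although other steps were higher. Tm7sf2, a sterol reductase, had 748 and 812 in untreated cells against 331 and 620 after DSS, a log2 difference of -0.74 ± 0.45 (SE). Nsdhl, which acts beside Msmo1 in removing the ring's methyl groups, had 953 and 874 against 782 and 635, a difference of -0.36 ± 0.39 (SE). For Tm7sf2 the gap between the DSS arrays, 0.85 log2, was larger than the difference between the groups. With every array set to a common median both genes overlapped between groups, at -0.41 for Tm7sf2 and -0.026 for Nsdhl.

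Fdft1, squalene synthase, the first step committed to sterols, had 3192 and 2410 in untreated cells against 4087 and 2799 after DSS, with overlapping groups (0.28 ± 0.41, SE). Its other kept probe sets gave -0.47, 0.59 and, on one kept through the untreated arrays only, -2.19, so its direction is not settled. Lss, which closes the sterol ring, had 1123 and 2414 against 1458 and 1335, and the DSS arrays lay between the untreated ones. Hsd17b7 and Dhcr7, later steps of the same stretch, overlapped as well, with log2 differences of 0.38 ± 0.46 and 0.17 ± 0.67 (SE). The other kept probe sets of Hsd17b7 all went the other way, at -1.37, -0.10 and -0.10. The direction of Hsd17b7 is therefore not settled either. Stard4, which carries cholesterol through the cytosol, had 838 and 570 in untreated cells against 1195 and 1142 after DSS. Its groups were apart, by 0.73 ± 0.41 (SE). A second probe set of Stard4 gave 2.29, but its untreated arrays were far apart, at 20.1 and 546 against 897 and 746. The remaining one gave 0.45 with overlapping groups.

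**Figure D2:**
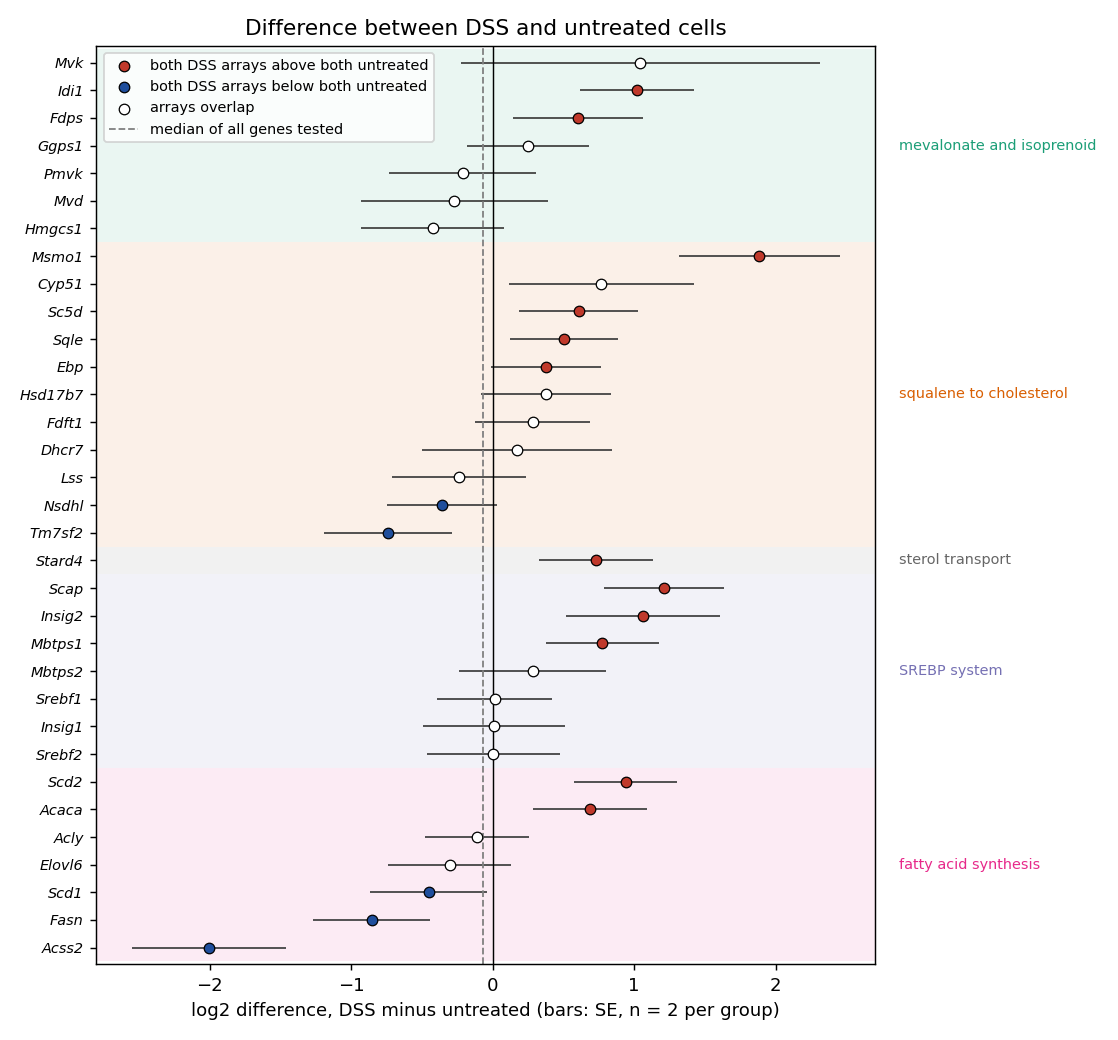
Log2 difference, DSS minus untreated, of the 33 genes by role, with bars of 1 SE (limma, n = 2 per group). Red points mark the 12 genes whose DSS arrays were both above both untreated arrays, blue points the 5 below, open points those that overlap, and the dashed line the median of all 12425 genes at -0.07.

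Of the 7 genes of the SREBP system, 3 (42.9%) were higher on both DSS arrays and 0 lower, against 17.2% and 23.8% of all genes tested. All 7 estimates were above 0 as deposited, but those of Srebf1, Srebf2 and Insig1 were 0.014 or less. After common-median scaling all 7 were above 0, with Srebf1, Srebf2 and Insig1 at 0.35, 0.33 and 0.33. The median of all genes was then 0.25. After quantile normalization 6 were above 0 and Srebf1 was at -0.092. On their brightest probe sets, transcripts of the factors themselves overlapped between groups. Srebf1, which encodes the SREBP-1 forms, had 2288 and 1499 in untreated cells against 1982 and 1766 after DSS (0.014 ± 0.41, SE). Srebf2, which encodes the factor most tied to cholesterol synthesis, had 339 and 480 against 518 and 316 (0.0041 ± 0.47, SE). A second kept probe set of Srebf2 read 226 and 94.5 against 383 and 228, a log2 difference of 0.86. There both DSS arrays lay above both untreated arrays. The signals say nothing of how much active factor the cells held.

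Scap, the escort protein that senses sterol, had 302 and 445 in untreated cells against 788 and 1005 after DSS. Both DSS arrays were above both untreated arrays, by 1.21 ± 0.42 (SE), or 2.31-fold, with an unadjusted p of 0.0247 and an adjusted p of 0.648 by limma. Its promoter stretch above carries an E-box 40 to 35 bases before the start. Mbtps1, the protease that makes the first cut in SREBP, had 2097 and 1474 against 3358 and 2740, apart by 0.78 ± 0.40 (SE). Another of its kept probe sets went the other way, with 1931 and 1539 against 789 and 787, a log2 difference of -1.10. Mbtps2, which makes the second cut, had overlapping groups (0.28 ± 0.52, SE).

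The retention proteins Insig1 and Insig2 differed in pattern. Insig1, itself a strong target of SREBP, had 667 and 312 in untreated cells against 540 and 394 after DSS, so the DSS arrays lay between the untreated ones. Insig2, the form that does not depend on SREBP in the same way, had 545 and 192 against 761 and 683, a log2 difference of 1.06 ± 0.54 (SE). The gap between the untreated arrays of Insig2, 1.36 log2, was larger than this difference. Its other probe sets gave 0.53, with overlapping groups, and 1.53. Insig2's estimate was 1.75 without the first untreated array and 0.38 without the second, and the difference between Insig1 and Insig2 was not tested.

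The 7 genes of fatty acid synthesis divided, with 2 (28.6%) higher and 3 (42.9%) lower on both DSS arrays, against 17.2% and 23.8% of all genes tested. Their median log2 difference was -0.30 on the deposited scale, -0.27 with quantiles equalised and 0.037 with a common median, which relative to all genes is -0.23, -0.28 and -0.22 in turn. Acss2, acetyl-CoA synthetase of cytosol and nucleus, had 2412 and 6117 in untreated cells against 1195 and 728 after DSS. This is a log2 difference of -2.01 ± 0.55 (SE), or 4.01-fold lower, with the smallest p of the 33 genes (limma unadjusted p = 0.00796, adjusted p = 0.648). Both DSS arrays lay below both untreated arrays, and so they did on its second kept probe set, at 727 and 899 against 580 and 548 (-0.50). Fasn, fatty acid synthase, had 1422 and 2015 against 792 and 1072, a log2 difference of -0.85 ± 0.41 (SE), or 1.81-fold lower.

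Acly, which makes acetyl-CoA from citrate, had 15409 and 20635 in untreated cells against 15458 and 17666 after DSS, with overlapping groups (-0.11 ± 0.37, SE). Its other kept probe sets gave -0.33, 0.30 and, on one kept through the untreated arrays only, -2.00. Acaca, acetyl-CoA carboxylase, the committed step, had 848 and 1204 against 1795 and 1516, and both DSS arrays were higher, by 0.69 ± 0.40 (SE). Acaca and Fasn catalyse successive steps and had opposite estimates. Elovl6, which lengthens the product, overlapped (-0.30 ± 0.44, SE). Its other kept probe sets gave -0.37 and -1.98, the latter kept through the untreated arrays only.

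The stearoyl-CoA desaturases Scd1 and Scd2, which place the first double bond in fatty acids, had opposite estimates with close replicates. Scd2 had 2616 and 2774 in untreated cells against 5307 and 5088 after DSS, a log2 difference of 0.94 ± 0.36 (SE), or 1.92-fold higher. Scd1 had 496 and 519 against 355 and 369, a difference of -0.45 ± 0.41 (SE), or 1.37-fold lower. The gap between replicates was at most 0.084 log2 for Scd2 and 0.061 for Scd1, well under the difference between groups as deposited. The size of that difference depended on scaling. For Scd1 it was -0.27 after quantile normalization and -0.13 with every array set to a common median, with groups still apart. For Scd2 it was 0.80 and 1.28 in turn. A dimmer kept probe set of Scd2 read 168 and 295 against 110 and 209, with overlapping groups (-0.46). The 2 genes are close relatives, so their probe sets may share signal, and the difference between them was not tested.

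Of the 64 kept probe sets 6 were above the array median in 1 group only, the group where they are high, so the filter set their direction. They belong to Acly, Cyp51, Elovl6, Fdft1, Ggps1 and Hmgcs1. With these set aside, a choice made after their values were seen, probe sets of the same gene had 1 direction for 8 of the 15 genes with more than 1 left, or 53.3%, against 44.5% of 4485 such genes on the array. The 8 were Acss2, Cyp51, Elovl6, Idi1, Insig2, Mvd, Srebf2 and Stard4. Over all 64 kept probe sets of the 33 genes, 22 were higher and 14 lower on both DSS arrays. The shares were 17.5% and 23.1% of the 20233 probe sets kept on the array. These counts still hold the 6 whose direction the filter set. Those of Cyp51 and Ggps1 are among the 22, and those of Acly, Elovl6, Fdft1 and Hmgcs1 among the 14. Such probe sets made up 9.38% of the 64 and 7.25% of all kept. Genes with 1 kept probe set have no check by a second one. Of these, 10 had no other probe set, among them Sqle, Fasn, Ebp, Nsdhl, Tm7sf2 and Srebf1. For the others, Acaca, Fdps, Lss, Msmo1, Mvk, Sc5d, Scap and Scd1, further probe sets were not kept.

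**Figure D3:**
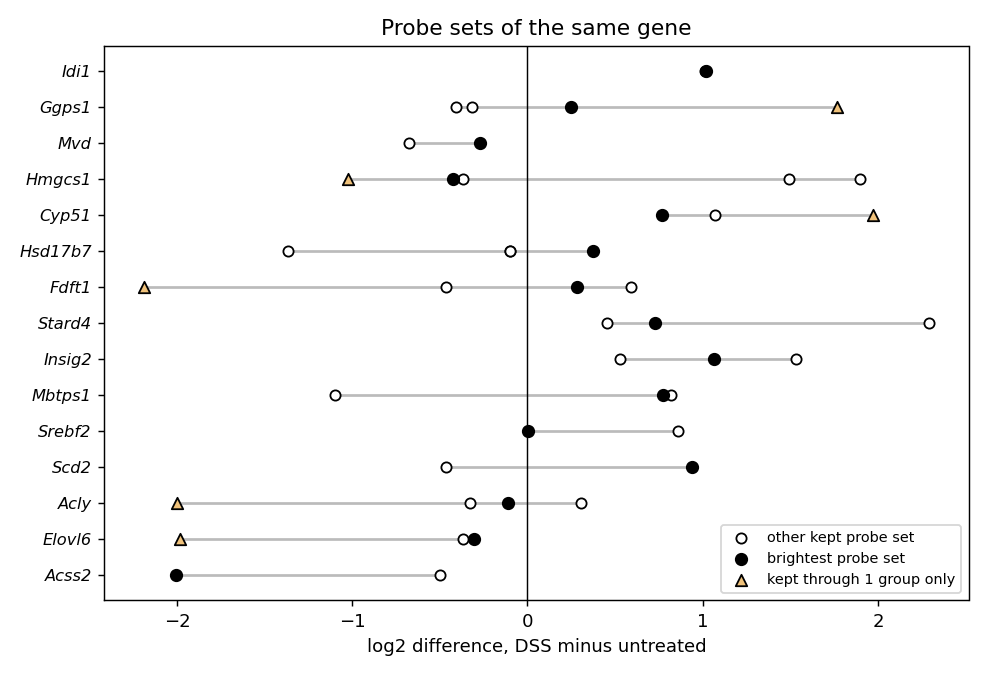
Log2 difference, DSS minus untreated, of each kept probe set of the 15 genes that had more than 1, with the brightest filled, those kept through 1 group only as triangles and a line from lowest to highest. The lines of Hmgcs1, Fdft1, Ggps1, Hsd17b7, Mbtps1, Scd2 and Acly cross 0, and the 2 probe sets of Idi1 coincide at 1.01 and 1.02.

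The number of genes called changed with the untreated array left out. Without the first untreated array limma called 10 of the 33 genes, 6 higher and 4 lower, while calling 14.4% of all genes. Those higher were Msmo1, Cyp51, Insig2, Idi1, Mbtps1 and Scd2, and those lower were Acss2, Hmgcs1, Mvd and Fasn. Without the second untreated array it called 3, Mvk and Scap higher and Acss2 lower, while calling 6.05% of all genes. Acss2 was called in both, at -2.67 ± 0.35 (SE; limma adjusted p = 6.04e-05) and -1.34 ± 0.37 (SE; adjusted p = 0.0323). Each such fit takes the spread from the DSS arrays and assumes that the lone untreated array varies like them. Without either DSS array 0 of the 33 were called, and 0 of all genes.

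Where the groups do not overlap, leaving out 1 array cannot turn the sign, so these ranges show size alone. With each array left out the estimate ranged from -2.67 to -1.34 for Acss2, from 1.27 to 2.50 for Msmo1, from 0.95 to 1.47 for Scap and from 0.79 to 1.25 for Idi1. That of Scd2 ranged from 0.90 to 0.98 and that of Sqle from 0.47 to 0.54. Fasn ranged from -1.10 to -0.61. For Cyp51 and Dhcr7, whose groups overlap, the ranges were -0.20 to 1.74 and -0.76 to 1.10.

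**Figure D4:**
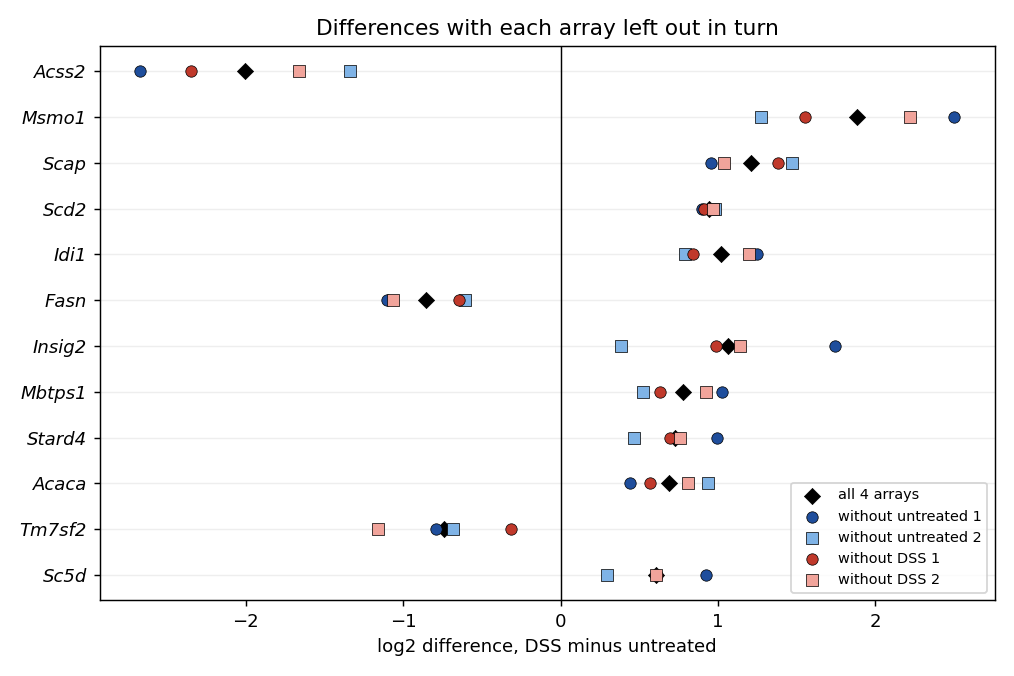
Log2 difference of the 12 genes with the smallest limma p, with all 4 arrays (diamond) and with each array left out in turn. The groups of all 12 do not overlap, which fixes the side of 0, and the points of Scd2 fall within 0.90 to 0.98 while those of Acss2 run from -2.67 to -1.34.

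Other genes of the same pathways were counted from lists of neighbours. Of the sterol and SREBP neighbours, 12 genes were tested, limma called 0 after adjustment and 2 higher and 1 lower had an unadjusted p under 0.05, and 6 of the 12 were higher and 1 lower on both DSS arrays, beside 17.2% and 23.8% of all genes. Abca1, the cholesterol exporter induced by LXR, had 142 and 188 in untreated cells against 685 and 986 after DSS (2.13 ± 0.46, SE), and macrophages express it too. Its untreated values were both below their array medians, so it passed the filter through the DSS arrays where it is high. Ube2g2, a ubiquitin-conjugating enzyme of endoplasmic reticulum degradation, which removes sterol-regulated proteins, had 271 and 127 against 702 and 672 (1.71 ± 0.50, SE). The lower one, named after its values were seen, was Npc1, which exports cholesterol from lysosomes, at 703 and 627 against 234 and 278 (-1.27 ± 0.42, SE). Of 11 genes that attach or use isoprenoids limma called 0, and 0 had an unadjusted p under 0.05. Of these, 3 (27.3%) were higher and 5 (45.5%) lower. Rabggtb, a subunit of the enzyme that prenylates Rab proteins, had 798 and 155 in untreated cells against 956 and 1211 after DSS (1.49 ± 0.70, SE). Its second untreated value was below that array's median of 214. Nus1, of dolichol synthesis, read -0.65 ± 0.38 (SE).

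Of 17 further fatty acid and glyceride genes limma called 0 and 1 had an unadjusted p under 0.05. On both DSS arrays 5 (29.4%) of the 17 were higher and 5 (29.4%) lower, against 17.2% and 23.8% of all genes tested. Acsl4, which activates long polyunsaturated fatty acids, had 474 and 230 in untreated cells against 1179 and 823 after DSS (1.48 ± 0.49, SE). Mlxipl, which encodes the carbohydrate-responsive lipogenic factor ChREBP, had 260 and 402 against 134 and 52.1 (-1.59 ± 0.71, SE), and both DSS values were below their array medians of 157 and 163, so it passed the filter through the untreated arrays where it is high. The median log2 difference was 0.33 for the sterol neighbours, -0.0078 for the isoprenoid users and -0.13 for the fatty acid neighbours, beside -0.07 for all genes.

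Markers of dividing cells were measured on the same arrays. All 9 cell cycle markers read had estimates above 0, and 5 (55.6%) were higher on both DSS arrays, among them Top2a and Pcna. The share higher over all genes tested was 17.2%. Their summed signal was 26895 and 18445 in untreated cells against 33402 and 37342 after DSS. Whether the sterol genes vary with them, or with the macrophage markers, was not tested. Epithelial markers, whose cells also make cholesterol, had sums of 15549 and 10787 against 17075 and 14379, with 3 of 13 higher and 2 lower. The 3 include Vil1, which was above the array median on 1 array only. Of the 12 epithelial markers that passed the filter, 2 (16.7%) were higher and 2 (16.7%) lower. Over all genes tested the shares were 17.2% and 23.8%. Neutrophil markers had 0 of 10 higher and 3 lower, beside 17.2% and 23.8% of all genes tested. The lower ones were Mmp8, Mpo and Mmp9. Mmp8 and Mpo were above the array median on the untreated arrays only, where they are high, and Mmp9 on 1 array. Camp and Cxcr2 were below it on all 4 arrays. S100a8 read 204 and 31.1 against 80.2 and 883. B cell markers, 4 of 5 read, summed to 1161 and 2730 against 1255 and 2256.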

How the data were processed

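Total RNA of the 4 sorted samples was isolated with a PicoPure kit, amplified with a RiboAmp HS kit and labelled with biotin, 1 array per sample, per the labels' protocols. The deposited values are linear intensities, made by the authors with GCOS, per the submitters' processing notes. Its version is not given in the sources used here. Without their lowest and highest 2%, the values average 500.0 on every array. Probe sets were named through the platform annotation. Of 45101, 34958 had 1 symbol, 932 several and 9211 none. The gene numbers of all 33 genes matched RefSeq with 0 symbols changed. Probe sets ending in _x_at or _s_at can bind related transcripts.

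No further normalization was applied. Analysis used log2(signal + 32), the filter given above, the brightest kept probe set per gene and limma 3.58.1 (lmFit, eBayes with an intensity trend) in R 4.3.3, with group as the only term, over 12425 genes at an adjusted p of 0.05. The number of arrays limits the precision. Same-numbered arrays deviated together at r = 0.052 over these genes, and the numbers were not taken as pairs. Other settings tried were 2 scalings, 2 pseudocounts, 2 filters, other ways to pick probe sets, other variance models, a looser threshold, the replicate block, and each array left out. Signals per array are given for the 12 genes with the smallest p and for set regulators and key enzymes; signals of Mvk, Mvd, Pmvk, Ggps1, Fdps, Ebp and Nsdhl were added after their values were seen. Neighbour lists name the 2 genes with the smallest p. The genes and lists were chosen with earlier results of these data known. Some genes of these pathways are not reported here.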

Additional observations from a re-analysis of the deposited data

How the results depend on the processing

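The count of 0 of the 33 genes held under the other scalings, pseudocounts, filters, probe set choices, variance models, the looser threshold, the replicate block and without either DSS array; it was 0 to 10 with each array left out. Over all genes the count of 0 became 1 with probe sets above the median on all 4 arrays, 3 with probe sets averaged, 4 at an adjusted p of 0.10, 9 with array weights, 67 with the replicate block and 0 to 1785 with each array left out. The replicate block gave a smallest adjusted p among the 33 of 0.0835 by limma. The 17 genes with groups apart became 36 of 64 probe sets (56.2%, against 40.6% of all probe sets) when each was taken on its own. The 36 include the 6 probe sets kept through 1 group only. With an untreated array left out the 17 genes became 31 and 28 (83.1% and 79.0% of all genes). With a DSS array left out they became 20 and 21 (60.0% and 59.9%). In each case 1 array overlaps less often by construction. The median of 0.28 became 0.61 after common-median scaling and 0.14 to 0.40 with each array left out.

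In the 13 to 15 settings that could be run for each, 17 of 33 genes did not turn sign. These are the 17 with groups apart, for which leaving out an array could not turn it, and a filter or variance setting that keeps the probe set leaves the estimate as it is. After common-median scaling the sign turned for Elovl6 (0.037), Mvd (0.059), Lss (0.10), Pmvk (0.12) and Acly (0.24). With probe sets averaged it turned for Hsd17b7 (-0.30), Fdft1 (-0.45) and Hmgcs1 (0.32). With probe sets ending in _x_at, _s_at or _a_at left out it turned for Hsd17b7 (-0.10), Ggps1 (-0.41), Fdft1 (-0.47), Acly (0.30) and Hmgcs1 (1.90). It turned for Insig1 at the higher pseudocount tried (-0.0028) and for Srebf1 after quantile normalization (-0.092). With each array left out the range crossed 0 for Acly (-0.32 to 0.10), Cyp51 (-0.20 to 1.74), Dhcr7 (-0.76 to 1.10), Elovl6 (-0.66 to 0.054), Ggps1 (-0.14 to 0.64), Hmgcs1 (-1.13 to 0.28), Hsd17b7 (-0.10 to 0.85), Insig1 (-0.50 to 0.52), Lss (-0.78 to 0.31), Mbtps2 (-0.27 to 0.83), Mvd (-1.26 to 0.72), Mvk (-1.14 to 3.23), Pmvk (-0.82 to 0.40), Srebf1 (-0.29 to 0.31) and Srebf2 (-0.33 to 0.33). The causes were not tested, except that averaging and leaving out probe sets change which probe sets are read. Detection calls were not used, so signals near the array medians have no stated limit.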
